A study of Rattus norvegicus with 9 samples.

Results

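Transcript levels of 10 genes of autophagy initiation and cargo selection (Ulk1, Becn1, Atg7, Map1lc3a, Map1lc3b, Gabarapl1, Sqstm1, Bnip3, Bnip3l and Tfeb) were followed in rat gastrocnemius (calf muscle), whose motor axons run in the sciatic nerve. The genes were chosen by name and found through their NCBI gene IDs, and all 10 were among the 13752 gene IDs in the deposited tables. Messenger RNA from male rats was sequenced on a BGISEQ-500 in 9 libraries, 3 per group. Total expected counts were 7926445 to 8893843 per library. The labels give an age of 8 weeks for every sample, without saying whether at the operation or at sampling. SHAM animals had a sham operation and DN animals a sciatic nerve injury, both with anaesthesia and skin electrodes but no current. DN-SM animals had the nerve injury and then electrical stimulation through the skin each day for 4 weeks, at 25 V, 1 mA and 2 Hz with a pulse width of 300 ms. The strain, the kind of nerve injury and the time at which SHAM and DN muscle was taken are not given in the sources used here.

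Autophagy encloses cytoplasm, protein aggregates or organelles in a double membrane and delivers them to the lysosome for breakdown. A kinase complex starts the process, a lipid kinase complex marks the site, and a ubiquitin-like conjugation system attaches ATG8 proteins to the growing membrane, where cargo receptors bind them. In skeletal muscle the pathway removes damaged mitochondria and supplies amino acids during fasting, and it is known as a contributor to the loss of muscle mass after denervation.

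Muscle was the main tissue in every library: 5 measured markers of skeletal fibres summed to between 104936 and 132886 FPKM. SHAM replicate 2 stood apart from the other libraries: its slow-fibre markers summed to 4259 FPKM, against 15552 and 10255 in the other SHAM libraries, and it is left out among the alternatives below. Summed markers of several other cell types differed between the groups. The 6 Schwann cell markers summed to 39.21 to 44.83 FPKM in SHAM, 99.71 to 250.97 in DN and 55.36 to 135.24 in DN-SM, and the 6 endothelial markers to 96.55 to 107.75, 140.82 to 179.02 and 126.96 to 138.02. Sums of the 6 adipocyte markers were 79.31 to 103.09 FPKM for SHAM, 117.52 to 162.96 for DN and 105.05 to 133.26 for DN-SM. Of these 6 markers, 1 was at 0 in some library. Fabp4 made up most of each mean sum: 75.07 of 94.01 FPKM (SHAM), 111 of 144.23 (DN) and 108.1 of 123.67 (DN-SM). Of the 5 adipocyte markers tested, 1 rose and 4 fell in DN-SM against SHAM (median log2 fold change -0.248). All 5 rose in DN against SHAM, and none had an edgeR adjusted p under 0.05 in either comparison. Fibroblast sums were 262.10 to 638.97 FPKM in SHAM, 384.53 to 566.31 in DN and 267.06 to 384.50 in DN-SM, and macrophage and erythroid sums overlapped between all groups. The 8 slow-fibre markers summed to 15806 to 21587 in DN and 7603 to 17572 in DN-SM. The 8 fast-fibre markers summed to 66707 to 98008 FPKM in SHAM, 73225 to 80808 in DN and 83579 to 97492 in DN-SM. No marker of the fibre, Schwann cell or endothelial lists that was measured was at 0 in any library. Their part in the values of the autophagy genes was not tested, and in whole muscle fewer cells of a type and less RNA per cell cannot be told apart.

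Ulk1 was the 1 member that passed the test in any comparison: it fell in stimulated denervated muscle relative to SHAM, to 10.9 ± 0.755 from 17.1 ± 1.76 FPKM (SD, n = 3; fragments scaled to transcript length and library total, so levels can be set side by side between genes). In that comparison nerve injury and stimulation change together, so the fall cannot be assigned to 1 of them. None of the other 9 members passed in any of the 3 comparisons. The values of each gene are given below by its place in the pathway, and the plot of the members' FPKM shows them all.

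**Figure D1:**
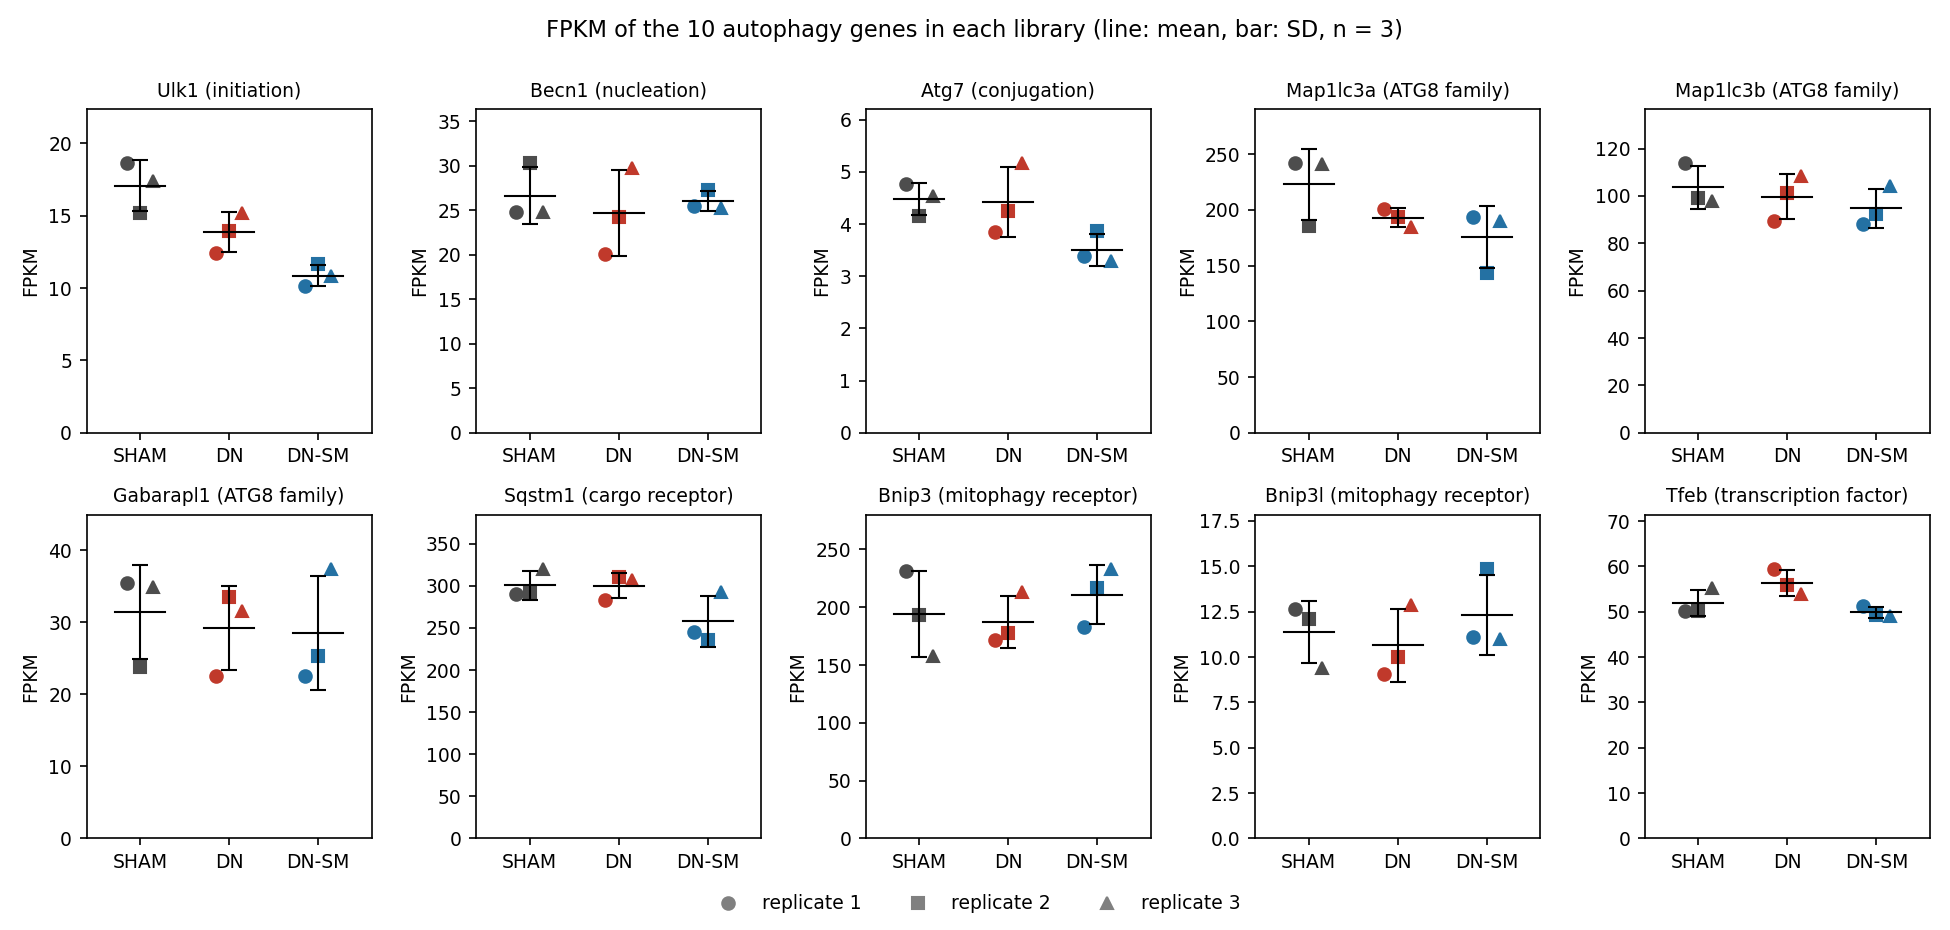
FPKM of each of the 10 genes (y axis, from 0) in the SHAM, DN and DN-SM libraries (x axis); symbols are replicates, horizontal lines group means and bars SD with n = 3. Ulk1 lies between 15.16 and 18.64 in SHAM and between 10.13 and 11.64 in DN-SM, while the groups of most other members overlap.

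Per length, Sqstm1 was the most abundant member, with a mean of 286 FPKM over the 9 libraries and the rank of 250 among all gene IDs. Bnip3 (198) and Map1lc3a (197) followed and did not differ beyond their spread, since Bnip3 was the higher of the pair in 4 of 9 libraries. Map1lc3b came next at 99.4 FPKM and Tfeb at 52.7, each without overlap with its neighbours. Gabarapl1 (29.7) and Becn1 (25.8) overlapped, as did Ulk1 (13.9) and Bnip3l (11.5). Atg7 was the lowest at 4.14 FPKM, from 63 to 106 counts per library. Across the 9 libraries the highest FPKM of a member was between 1.21 times (Tfeb) and 1.84 times (Ulk1) its lowest. On the log2 scale of counts scaled to library size (CPM), the pooled SD within groups was 0.0801 for Ulk1 and 0.0808 for Map1lc3b, and 0.301 for Gabarapl1 beside a median of 0.243 over all genes tested.

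Ulk1 (gene ID 360827) encodes the kinase that starts autophagosome formation and that AMP-activated kinase and mTOR regulate. It was at 18.64, 15.16 and 17.38 FPKM in SHAM replicates 1 to 3, at 12.43, 13.98 and 15.16 in DN, with 10.13, 11.64 and 10.84 in DN-SM. Every DN-SM library lay below every DN and SHAM library, and DN met SHAM only where DN replicate 3 and SHAM replicate 2 had the same value. In DN-SM against SHAM the log2 fold change was -0.63 (SE 0.104, 95% interval -0.85 to -0.40, edgeR adjusted p = 0.0214), which is a level of 0.555 to 0.758 times that of SHAM. By its unadjusted p it stood 23rd of 10129 genes tested. Neither step between the groups passed by itself: DN against SHAM was at -0.37 (interval -0.60 to -0.15, edgeR adjusted p = 0.0606) and DN-SM against DN at -0.25 (interval -0.48 to -0.03, edgeR adjusted p = 0.241).

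The direction of Ulk1 in DN-SM against SHAM was the same in all 19 alternative settings fixed with the design, with log2 fold changes from -0.67 to -0.58, but the call held in 10 of them. It was lost when only these 2 groups were fitted (edgeR adjusted p = 0.0633), with limma on log2 FPKM (0.0733 to 0.107), without SHAM replicate 1 (0.0521) or 3 (0.0533), and without DN-SM replicate 1 (0.11), 2 (0.0694) or 3 (0.0786). It held without SHAM replicate 2 (0.0132) or any single DN library (0.0293 to 0.0424). In DN against SHAM the DESeq2 Wald test called Ulk1 lower (adjusted p = 0.0277), which edgeR did not.

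**Figure D2:**
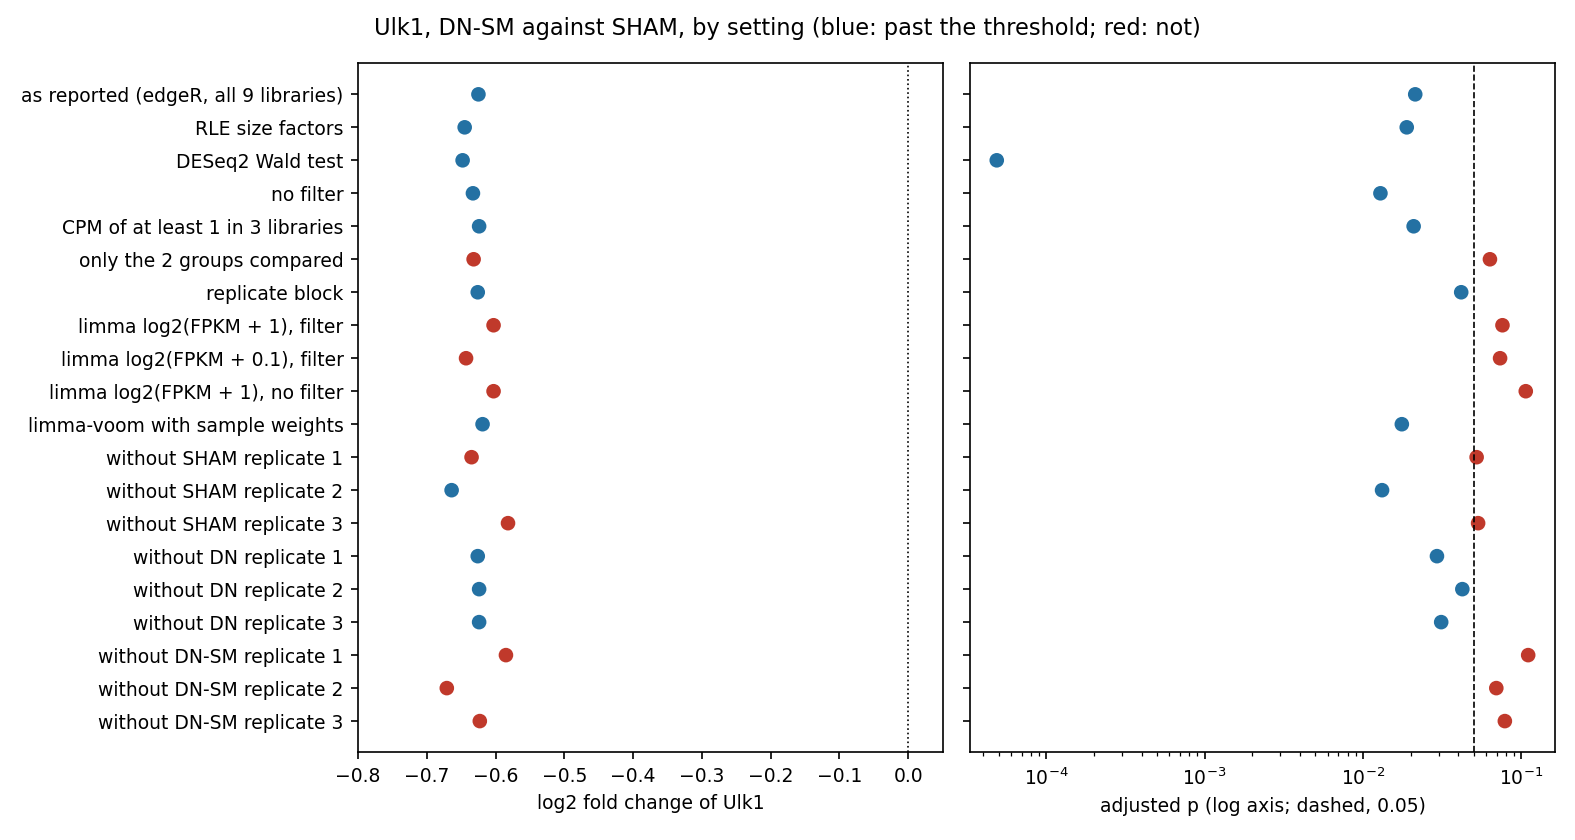
Log2 fold change of Ulk1 in DN-SM against SHAM (left) and its adjusted p on a log axis (right) under the reported fit and the 19 other settings (rows); blue points pass 0.05 and red points do not. The fold change stays between -0.67 and -0.58, while the adjusted p falls on both sides of the dashed threshold.

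The promoter of Ulk1 is shown because Ulk1 was the 1 member called in the edgeR fit of all 9 libraries. That of Bnip3 is shown because it was the only member promoter with the E-box letters CACGTG. These letters read the same on both strands, and Tfeb and other basic helix-loop-helix factors bind them. Both promoters are the 300 bases from 250 before to 50 after the gene start in RefSeq (GRCr8), printed 5′ to 3′ along the gene. Capitals mark the E-box. Ulk1 lies on the plus strand at chr12:51511242-51511541 and Bnip3 on the minus strand at chr1:203154913-203155212.
Ulk1: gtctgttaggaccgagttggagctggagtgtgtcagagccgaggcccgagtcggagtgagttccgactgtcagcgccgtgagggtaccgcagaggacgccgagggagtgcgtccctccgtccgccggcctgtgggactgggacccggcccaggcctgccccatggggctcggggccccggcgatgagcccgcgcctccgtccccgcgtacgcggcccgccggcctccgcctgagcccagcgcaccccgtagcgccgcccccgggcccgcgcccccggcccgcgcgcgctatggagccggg
Bnip3: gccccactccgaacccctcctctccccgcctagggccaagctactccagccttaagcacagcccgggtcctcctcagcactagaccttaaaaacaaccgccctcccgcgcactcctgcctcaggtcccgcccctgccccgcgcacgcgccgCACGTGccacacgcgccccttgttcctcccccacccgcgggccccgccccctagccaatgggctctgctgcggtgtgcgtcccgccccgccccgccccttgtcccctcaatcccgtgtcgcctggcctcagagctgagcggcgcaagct
The promoter table used here had an entry for 7 of the 10 members. The E-box was in 1 of these 7, where it began 99 bases before the start of Bnip3, and in 6.42% of all 33469 promoters in the table. The FoxO motif GTAAACA, or its reverse complement TGTTTAC, which does not overlap the E-box, was in 0 of the 7 and in 3.78% of all promoters. The Ulk1 window had a GC content of 76.7%, the highest of the 7, against a median of 51.7% over all promoters.

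Becn1 encodes a subunit of the lipid kinase complex that nucleates the membrane. Its FPKM was 24.78, 30.28 and 24.75 in SHAM, 20.13, 24.24 and 29.69 in DN, with 25.43, 27.26 and 25.25 in DN-SM. The groups overlapped throughout, with log2 fold changes of -0.20 in DN against SHAM (95% interval -0.52 to 0.12) and 0.18 in DN-SM against DN (-0.15 to 0.50).

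Atg7 encodes the E1-like enzyme that activates ATG8 proteins for conjugation. It was at 4.77, 4.15 and 4.53 FPKM in SHAM, 3.85, 4.25 and 5.17 in DN, with 3.38, 3.86 and 3.29 in DN-SM. The DN-SM libraries lay below all SHAM libraries and overlapped DN only at DN-SM replicate 2 and DN replicate 1, and the log2 fold change of -0.33 in DN-SM against SHAM did not pass (95% interval -0.68 to 0.02, edgeR adjusted p = 0.424). Such a separation below SHAM in FPKM was seen in 9.34% of all genes tested.

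The 3 ATG8 genes are those of the proteins that are joined to lipid on the autophagosome membrane. Map1lc3a was at 242.03, 185.76 and 240.75 FPKM in SHAM, 201.16, 193.84 and 184.57 in DN, with 193.29, 143.42 and 189.87 in DN-SM. SHAM replicates 1 and 3 were the highest and DN-SM replicate 2 the lowest, and SHAM replicate 2 lay among the denervated libraries. Its log2 fold change was -0.32 in DN-SM against SHAM (interval -0.62 to -0.02, edgeR adjusted p = 0.359) and -0.27 in DN against SHAM (interval -0.57 to 0.03, 0.271).

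Map1lc3b, the isoform most used as an autophagosome marker, varied little. It was at 113.90, 99.00 and 97.88 FPKM in SHAM, 89.49, 101.11 and 108.27 in DN, with 88.22, 92.28 and 104.03 in DN-SM. The 95% interval of its log2 fold change was -0.35 to 0.09 in DN against SHAM and -0.19 to 0.24 in DN-SM against DN, the narrowest of the 10 members, so a change of 1.5-fold lies outside both. The FPKM of Map1lc3a was 2.15 ± 0.293 times that of Map1lc3b in SHAM, 1.96 ± 0.274 times in DN and 1.86 ± 0.32 times in DN-SM (SD, n = 3), with overlap between all groups.

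Gabarapl1 was at 35.53, 23.86 and 34.93 FPKM in SHAM, 22.55, 33.49 and 31.60 in DN, with 22.61, 25.37 and 37.46 in DN-SM. Each group held libraries near 23 and others above 31, so the spread lay within groups; the interval of DN-SM against DN, -0.38 to 0.50 on the log2 scale, was the widest of the members in that comparison.

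Sqstm1 encodes the receptor that links ubiquitin-tagged cargo to ATG8 proteins. Its FPKM was 289.88, 291.70 and 320.38 in SHAM, 282.88, 310.53 and 306.70 in DN, with 245.26, 235.88 and 292.10 in DN-SM. DN-SM replicates 1 and 2 were the lowest of the 9 libraries, while replicate 3 lay within the other groups. The log2 fold change was -0.20 in DN-SM against SHAM (interval -0.47 to 0.07, edgeR adjusted p = 0.527) and -0.08 in DN against SHAM (-0.35 to 0.19, 0.748).

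Bnip3 and Bnip3l encode related receptors in the outer mitochondrial membrane that lead mitochondria to the autophagosome, and Bnip3 is a known target of FoxO and hypoxia-responsive factors in muscle. Bnip3 was at 231.77, 193.00 and 157.65 FPKM in SHAM, 171.81, 177.46 and 213.25 in DN, with 182.76, 216.53 and 233.41 in DN-SM. Bnip3l was at 12.63, 12.12 and 9.42 FPKM in SHAM, 9.05, 10.00 and 12.89 in DN, with 11.10, 14.87 and 11 in DN-SM. For both genes SHAM replicate 3 was the lowest SHAM library and DN replicate 3 the highest DN library, and the groups overlapped.

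In DN-SM against DN these receptors had the highest log2 fold changes of the 10 members, 0.27 for Bnip3 (interval -0.01 to 0.54, edgeR adjusted p = 0.289) and 0.31 for Bnip3l (-0.03 to 0.66, 0.322), and neither passed in any of the 19 settings. Bnip3l is also known for clearing mitochondria from maturing red cells. The summed FPKM of 6 erythroid markers was highest within SHAM in replicate 1 (18656.5) and within DN in replicate 1 (14184). Within DN-SM it was highest in replicate 2 (18568, against 8129 and 4197). In FPKM, Bnip3l was highest in those SHAM and DN-SM libraries and lowest in that DN library. In log2 CPM the highest SHAM library for Bnip3l was replicate 2 (5.429, against 5.239 in replicate 1). The part of blood RNA in Bnip3l was not tested.

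Tfeb encodes the transcription factor that controls lysosome and autophagy genes and is held in the cytoplasm by mTOR, a step that its transcript level does not show. It was at 50.08, 50.28 and 55.15 FPKM in SHAM, 59.51, 55.86 and 53.82 in DN, with 51.23, 49.22 and 49.16 in DN-SM. All DN libraries were above all DN-SM libraries in FPKM, but in counts scaled by edgeR the log2 fold change was -0.09 (interval -0.34 to 0.17, adjusted p = 0.731). Of all genes tested, 21.3% had DN-SM wholly below DN in FPKM.

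**Figure D3:**
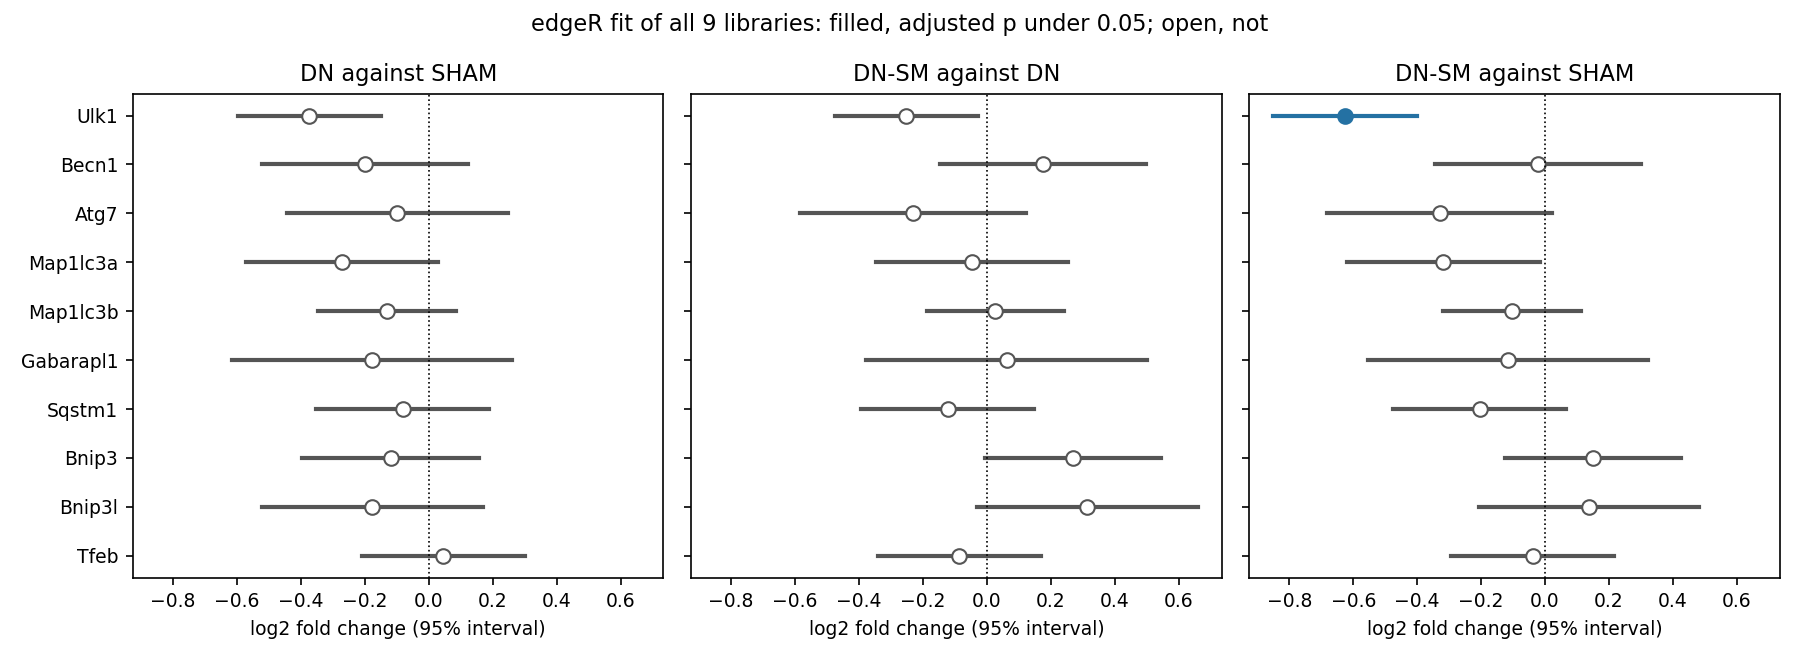
Log2 fold change (x axis) of each member (y axis) with its 95% interval in the 3 comparisons (panels), from the edgeR fit of all 9 libraries; the filled blue point passed an adjusted p of 0.05. Ulk1 in DN-SM against SHAM, at -0.63, is the one filled point.

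DN and SHAM differ in the nerve injury, and whether they also differ in the time of sampling is not given. In DN against SHAM, 0 of 10 members passed, beside 4.26% of the 10129 genes tested (edgeR, adjusted p under 0.05 over all genes). Of all genes, 2.57% were higher and 1.70% lower. The 1 member with an unadjusted p under 0.05 was Ulk1, against 22.3% of all genes. DESeq2 called that 1, beside 9.01% of all genes. In the fit of those groups alone 0 of 10 passed, beside 1.57%, and by FPKM 0 of 10 had groups that did not overlap, beside 22.8%. In log2 CPM Ulk1 (SHAM 6.356 to 6.508, DN 5.967 to 6.101) and Map1lc3b (SHAM 7.513 to 7.575, DN 7.325 to 7.449) did not overlap there. The share of all genes without overlap was not taken on that scale. Of the 10 fold changes 9 were below 0, with a median of -0.15 on the log2 scale, where 5200 of all genes were below 0 and their median was -0.01. On log2(FPKM + 1) with limma, 9 were again below 0 but the members' median was -0.075 and that of all genes 0.05. DN-SM and DN differ in stimulation, and whether they also differ in time after the injury is not given. In DN-SM against DN, 0 of 10 passed by edgeR and by DESeq2, and 1 had an unadjusted p under 0.05, beside 17.6% of all genes. The background of edgeR calls there was 0.00987%, which is 1 gene, lower in DN-SM (0.00% higher), and that of DESeq2 calls 2.82%. By FPKM 2 of 10, Ulk1 and Tfeb, had no overlap, beside 32.7%. There 5 fold changes were above 0 and 5 below, with a median of -0.01, and on log2(FPKM + 1) with limma 7 were below 0, with a median of -0.11 beside -0.09 for all genes. DN-SM and SHAM differ in both the nerve injury and stimulation, and whether they also differ in the time of sampling is not given. In DN-SM against SHAM 1 of 10 members passed, beside 0.839% of all genes, 0.415% higher and 0.425% lower, and in the fit of those groups alone 0 of 10 passed, beside 0.284%. DESeq2 called 1 of 10, Ulk1, beside 2.98%. An unadjusted p under 0.05 was seen for 2 of 10 members, Ulk1 and Map1lc3a, against 12.8% of all genes, and 8 of the 10 fold changes were below 0, with a median of -0.11 beside 0.015 for all genes (4816 of them below 0). By FPKM 2 of 10, Ulk1 and Atg7, had no overlap, beside 16.8%. In log2 CPM Map1lc3a had none there either, at 7.131 to 7.584 in DN-SM and 7.590 to 7.918 in SHAM. The comparisons share groups of libraries, so they are not independent of each other.

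Over the 9 libraries, in log2 CPM, Ulk1 and Atg7 varied together (Pearson r = 0.87), as did Bnip3 with Bnip3l (0.72), Becn1 with Bnip3l (0.71) and Map1lc3b with Gabarapl1 (0.71), while Bnip3 and Tfeb were opposed (-0.68). These are descriptions over libraries that share depth scaling and groups. Among 5402 other genes with a mean FPKM of at least 5, the patterns most like that of Ulk1 were those of Ppp1r27, a regulatory subunit of protein phosphatase 1 (r = 0.955), Flcn, described below (0.952), and Xbp1, a transcription factor of the unfolded protein response (0.95).

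The other genes of the pathway were a list of 78, of which 75 were measured and tested. In DN against SHAM 3 of the 75 were lower and 0 higher, which is 4% beside 4.26% of all genes. Rragd, a Rag GTPase that brings mTOR to the lysosome and a known target of Tfeb, fell from 25.48, 25.13 and 25.46 FPKM in SHAM to 15.17, 18.52 and 16.43 in DN, a log2 fold change of -0.68 with an SE of 0.139 (edgeR adjusted p = 0.0232). In DN-SM it was at 18.18, 21.60 and 17.19 FPKM, so all 6 denervated libraries lay below SHAM, but DN-SM against SHAM did not pass (-0.40, SE 0.138, edgeR adjusted p = 0.227) in any of the 19 settings either.

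Sesn1, a sestrin that restrains mTOR when leucine is short, fell from 18.31, 18.57 and 18.82 FPKM to 9.11, 12.51 and 13.56 (-0.75, SE 0.172, edgeR adjusted p = 0.0345), and DN-SM held 10.90, 12.56 and 17.03. DN-SM against SHAM did not pass for Sesn1 (-0.45, SE 0.171, edgeR adjusted p = 0.286), nor in any of the 19 settings. For both genes the SHAM libraries were close together and apart from DN. The Rragd call held in 15 of 19 settings and the Sesn1 call in 10, and both were lost without SHAM replicate 2 (edgeR adjusted p = 0.054 and 0.0838), DN replicate 1 (0.0734 and 0.103) or DN replicate 3 (0.106 and 0.0915). The Sesn1 call was also lost without DN replicate 2 (0.0735) or DN-SM replicate 2 (0.0531). Optn, a receptor for ubiquitin-tagged mitochondria, was called at the edge of the threshold (-0.60, edgeR adjusted p = 0.04997) and held in 5 of 19. SHAM replicate 3, at 19.30 FPKM, lay within the DN range of 15.60 to 19.39 FPKM, and the other SHAM libraries were at 28.76 and 29.80.

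In DN-SM against SHAM 1 of the 75 genes was lower and 0 higher, which is 1.33% beside 0.839% of all genes. It was Flcn, folliculin, which activates the Rag GTPases RagC and RagD. Flcn was at 26.28, 24.59 and 25.20 FPKM in SHAM, 18.91, 23.51 and 24.66 in DN, with 15.78, 18.96 and 16.24 in DN-SM. SHAM and DN-SM did not overlap and DN reached from one to the other (log2 fold change -0.56, interval -0.81 to -0.30, edgeR adjusted p = 0.04981); the call held in 4 of 19 settings and in 0 of the 9 that left out a library, where the adjusted p reached 0.201.

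In DN-SM against DN 0 of the 75 passed, and 17.3% had an unadjusted p under 0.05, beside 17.6% of all genes. DESeq2 gave an adjusted p for 67 of the 75 and called 5 of them, all higher, which is 7.46% beside 2.82% of all genes. The 3 with the smallest p were Optn, Rb1cc1 and Ulk2, each with an edgeR adjusted p of 0.144. Ulk2, the close relative of Ulk1, was at 5.73, 6.54 and 3.98 FPKM in SHAM, 3.84, 3.47 and 2.83 in DN, with 5.55, 5.66 and 5.91 in DN-SM. Its log2 fold change was 0.84 in DN-SM against DN (interval 0.42 to 1.27), where that of Ulk1 was -0.25 (-0.48 to -0.03). Rb1cc1, the scaffold of the Ulk1 complex, was at 0.77, 1.09 and 1.09 FPKM in DN and 1.70, 1.76 and 1.70 in DN-SM (log2 fold change 0.90), with SHAM at 1.33, 1.58 and 1.04. Optn reached 30.89, 26.10 and 29.15 FPKM in DN-SM (0.77), above all DN libraries.

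When the DN and DN-SM libraries were fitted alone, 0 of 10 members and 7 of the 75 other genes were called in DN-SM against DN, all 7 higher in DN-SM. That is 9.33% of the list beside 7.21% of all genes, and 592 of the 716 genes called in that fit were higher (5.96% of all genes). The 7 were Optn (edgeR adjusted p = 0.00291), the mitophagy receptor Fundc1 (0.00864) and the cargo receptor Tax1bp1 (0.00234), Ulk2 (0.00703) and Rb1cc1 (0.00815), and the ATG8-processing proteases Atg4a (0.00722) and Atg4c (0.0428). With 1 library of that fit left out in turn, 6 of the 7 were called each time, all but Atg4c, beside 274 to 537 of all genes. These fits reuse the libraries by which the 7 were picked, so they give no independent support for them. In the fit of all 3 groups, 6 of the 75 were called without SHAM replicate 3, beside 416 of 10298 genes tested. Without SHAM replicate 2, 5 of the 75 were called, beside 339 of 10302 genes tested. SHAM replicate 3 was also the lowest SHAM library for each of the 7, at 3.76 FPKM for Tax1bp1 against 9.73 and 9.98.

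**Figure D4:**
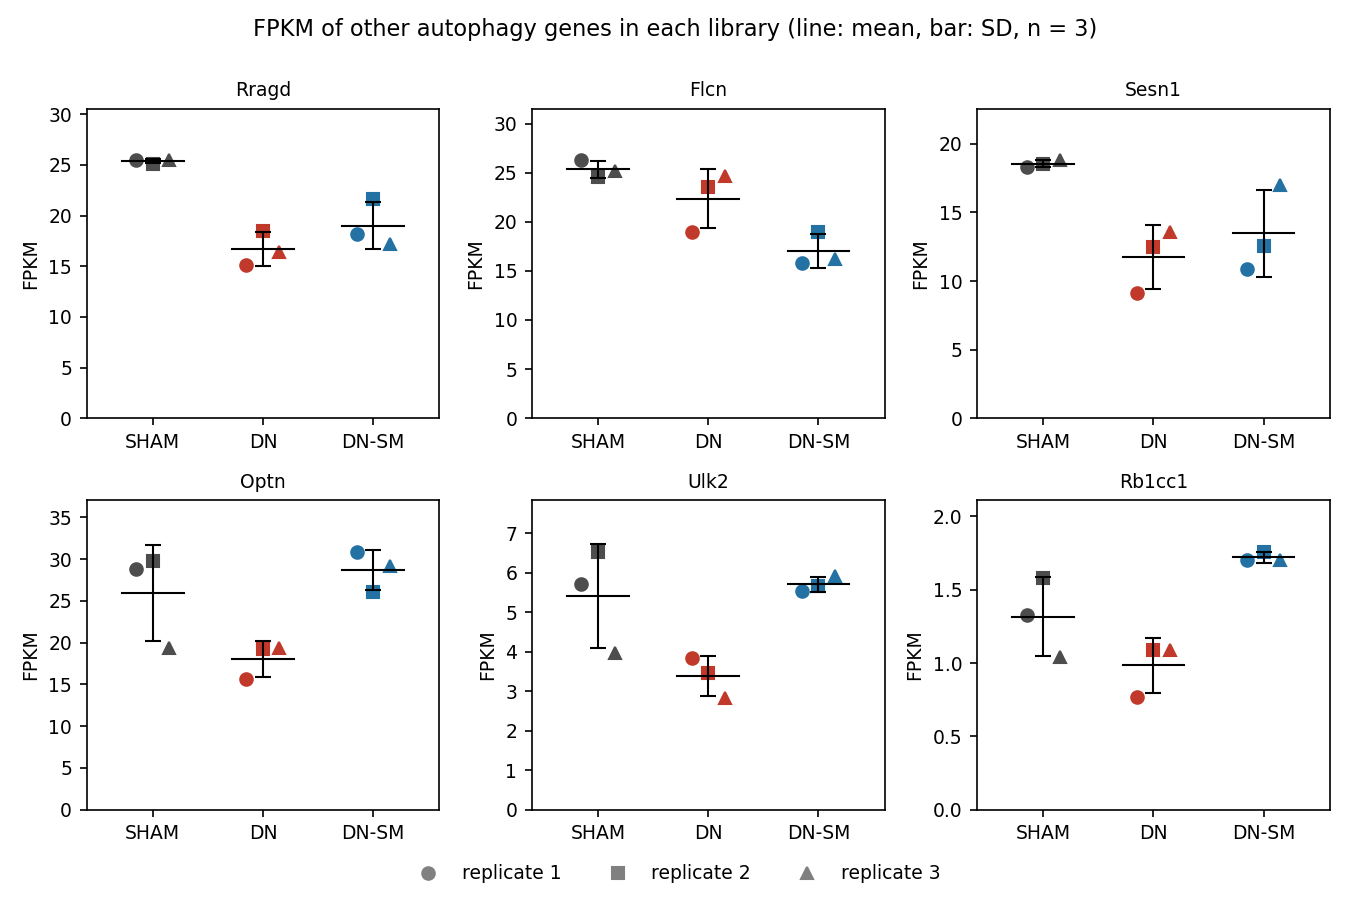
FPKM (y axis, from 0) of 6 other autophagy genes in the SHAM, DN and DN-SM libraries (x axis); symbols are replicates, lines group means and bars SD with n = 3. Rragd and Sesn1 have all 6 denervated libraries below SHAM, with a call in DN against SHAM and none in DN-SM against SHAM, Flcn is lowest in DN-SM, and Optn, Ulk2 and Rb1cc1 have SHAM replicate 3 near the DN libraries.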

How the data were processed

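Messenger RNA libraries of 9 gastrocnemius samples, 3 per group by the labels, were analysed from the authors' deposited tables. The expected counts are, per the file headers, those RSEM estimates for each gene, not normalized by the authors. The FPKM values are, per the file headers, the authors' fragments scaled to transcript length and library total. GATK, HISAT2, RSEM and the build rn6 are named in the submitters' processing notes, without versions; the strand setting is not given in the sources used here, so overlapping and antisense transcripts cannot be told apart. A gene not listed for a library was taken as 0. Gene symbols were read from RefSeq (GRCr8), where 13649 IDs matched by gene ID, 7 by transcript and 96 not at all. Of 78 other autophagy genes 75 were found, and of 58 markers 57.

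Expected counts were rounded (those of the 10 genes were whole in all 9 libraries) and tested by the two-sided quasi-likelihood test of edgeR 4.0.16 in R 4.3.3. TMM factors scaled the libraries, and filterByExpr (minimum count 10, total 15) kept 10129 genes. All 9 libraries entered 1 fit with the group as its term, with Benjamini-Hochberg adjustment over all genes and a threshold of 0.05. Since separate animals are not stated in the labels, p-values measure only the spread between samples, which may be technical. Total counts of 7926445 to 8893843 per library set the counting error, which is relatively larger for genes with few counts. Levels are FPKM with SD.

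Named were all 10 genes, other autophagy genes past the threshold, or the 3 with the smallest p where none passed, and, for each member past the threshold, the 3 genes of highest Pearson r with it. Fundc1, Tax1bp1, Atg4a and Atg4c fall outside this rule and were named after their values were seen. They were called in DN-SM against DN when those 2 groups were fitted alone, but not in the edgeR fit of all 9 libraries. The members and lists were chosen with earlier results of these data known.

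Alternatives were RLE factors, DESeq2 1.42.0, other filters (none, or at least 1 CPM in 3 libraries), fitting the 2 groups of a comparison alone, a replicate block, limma 3.58.1 on log2(FPKM + 1) or log2(FPKM + 0.1), voom with sample weights, and leaving out each library. The edgeR fit was also run on simulated counts with 200 changed genes. Those counts had the same spread setting for every gene and no library that stood apart, unlike the data, so no conclusion is drawn from them. Promoter letters were searched on both strands in Python 3.11.15.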

Additional observations from a re-analysis of the deposited data

How the results depend on the processing

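Over 3 comparisons the 10 genes gave 660 values under other settings, of which 619 kept their sign and their side of the threshold, 10 lost the call of Ulk1 in DN-SM against SHAM, 1 gained a call (Ulk1 in DN against SHAM by DESeq2) and 30 changed sign, all of uncalled members. Counts were lowest for Atg7 (63 to 106), whose pooled SD of log2 CPM within groups, 0.109, was below the median of 0.243 over all genes. Fits of 2 groups with a replicate block, and those of DN and DN-SM alone with a library left out, were added after seeing the data. RLE, DESeq2, voom and the FPKM scale each moved the median log2 fold change of all genes by less than 0.1; limma on log2(FPKM + 0.1) moved it most, from -0.011 to -0.108 in DN-SM against DN. The causes of the changes below were not tested.

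In DN against SHAM the count of all genes called was 432, and it was 758 with DESeq2, 275 and 243 with limma on log2(FPKM + 1) and log2(FPKM + 0.1), 112 with limma without a filter, and 156 in the fit of 2 groups. Members called were 0, and 1 with DESeq2. Of the other autophagy genes 3 were called, and 6 with DESeq2, 5 without a filter, 5 with voom, 1 and 1 with limma at either pseudocount and 0 with limma without a filter. With 1 library left out the counts were 58 to 1183 for all genes and 0 to 8 for the other autophagy genes.

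In DN-SM against DN the count of all genes was 1, and it was 215 with DESeq2, 515 with voom, 716 in the fit of 2 groups and 0 with limma on log2(FPKM + 0.1). Leaving out SHAM replicate 2 gave 339 and leaving out SHAM replicate 3 gave 416, and 0 to 537 over all fits with a library left out. Other autophagy genes called were 0, and 5 with DESeq2, 7 with voom and 7 in the fit of 2 groups, with 0 to 6 when a library was left out. Members called were 0 in each of these settings.

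In DN-SM against SHAM the count of all genes was 85, and it was 259 with DESeq2, 42 and 43 with limma at either pseudocount, 12 with limma without a filter, and 28 in the fit of 2 groups. The 1 member became 0 with limma in all 3 forms and in the fit of 2 groups. The 1 other autophagy gene became 2 with RLE, 3 with DESeq2, 2 without a filter, and 0 with limma in all 3 forms and in the fit of 2 groups. With 1 library left out the counts were 15 to 137 for all genes, 0 to 1 for members and 0 to 2 for the others.

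The replicate numbers were not taken as pairs, since deviations of same-numbered libraries correlated at -0.05 to 0.11. With a replicate block in the fit of 9 libraries, DN-SM against SHAM gave 39 genes, 0 other autophagy genes and 1 member, Ulk1 (edgeR adjusted p = 0.0417). With a replicate block in the fits of 2 groups, DN against SHAM gave 151 genes and 1 other autophagy gene, DN-SM against DN gave 818 and 6, and DN-SM against SHAM gave 6 and 0, with 0 members.

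Sign changes came in log2 fold changes near 0. In DN-SM against DN, Map1lc3b was at -0.069 and Gabarapl1 at -0.048 with limma on log2(FPKM + 1), the same without a filter, -0.070 and -0.050 on log2(FPKM + 0.1), and -0.014 and -0.089 with voom. Voom put Sqstm1 at 0.012 in DN against SHAM, and Becn1 at 0.099 and Tfeb at 0.054 in DN-SM against SHAM. With 1 library left out, DN against SHAM ranged from -0.048 to 0.119 for Tfeb. DN-SM against DN ranged from -0.125 to 0.092 for Map1lc3a, -0.039 to 0.074 for Map1lc3b and -0.179 to 0.202 for Gabarapl1. DN-SM against SHAM ranged from -0.138 to 0.132 for Becn1, -0.362 to 0.020 for Gabarapl1, -0.133 to 0.034 for Tfeb and -0.013 to 0.236 for Bnip3l.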

Other observations

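The FPKM ratio of Ulk1 to its relative Ulk2 was 3.25, 2.32 and 4.37 in SHAM, 3.24, 4.03 and 5.36 in DN, with 1.83, 2.06 and 1.83 in DN-SM. Each DN-SM library was below each library of the other groups. The ratio of the cargo receptors Sqstm1 and Optn was 10.1, 9.79 and 16.6 in SHAM, 18.1, 16.1 and 15.8 in DN, with 7.94, 9.04 and 10.0 in DN-SM, so DN and DN-SM did not overlap and SHAM replicate 3 lay with DN. Both ratios were chosen after the values were seen, and no test was run on them.

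Ppp1r27, the gene with the pattern most like that of Ulk1, was at 413.93, 294.11 and 359.06 FPKM in SHAM, 176.19, 226.78 and 320.84 in DN, with 142.02, 137.69 and 141.24 in DN-SM. Xbp1 was at 54.32, 47.02 and 52.37 FPKM in SHAM, 42.44, 45.49 and 53.87 in DN, with 35.68, 37.36 and 39.00 in DN-SM.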
